A study of Caenorhabditis elegans with 2 samples.

Results

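The sites at genes for small structural RNAs, meaning transfer RNA (tRNA), small nuclear RNA (snRNA) and small nucleolar RNA (snoRNA) genes, were picked out from chromatin immunoprecipitation with sequencing (ChIP-seq) of the tagged homeodomain protein CEH-62 in Caenorhabditis elegans. A site is an entry of the pooled list of peaks and background regions whose summit, the position of highest signal, lay inside such a gene or within 500 bp of it on a nuclear chromosome. By that rule 322 of the 16710 nuclear entries of the pooled list were sites at small RNA genes, and the other 16388 nuclear entries served as the background. Of the 322, 190 were at tRNA genes, 29 at snRNA genes and 108 at snoRNA genes, and 5 entries were near genes of more than 1 of these types. No signal value entered the choice of the sites.

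The study holds 2 biological replicates of a single group and no other group. All worms were L4 larvae of mixed sex of strain OP416, genotype unc-119(tm4063) III; wgIs416, which carry an integrated transgene for CEH-62 (R06F6.6) with GFP and FLAG at its C terminus. Whole worms were used, so the signal is an average over tissues, and chromatin was broken by sonication. The lists of replicate 1 and replicate 2 held 29980 and 29972 nuclear entries, both were called against the same control, and an optimal list of 27 nuclear entries was the authors' most reproducible set. The signal is the peak caller's own score, as the authors deposited it; its scale is unknown, so it was compared only within a list, and ranks run from 1, the strongest nuclear entry. The sequencing depth is unknown. With 1 group there is no test over samples, so shares of entries or genes are given with exact Clopper-Pearson 95% intervals, which cover counting error only, and entries are not replicates.

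tRNA genes are transcribed by RNA polymerase III from promoter elements that lie inside the gene, the A box and the B box, to which the factor TFIIIC binds. In C. elegans, snRNA genes make the RNAs of the spliceosome, and the spliced leader genes make the short leaders that are joined to the starts of many messenger RNAs: SL1 mostly to the first gene of an operon or to genes outside operons, SL2 to downstream genes of operons. snoRNAs guide the chemical modification of ribosomal and other RNAs, and many of their genes lie in introns of protein-coding host genes. CEH-62 belongs to the homeodomain proteins, many of which bind sequences with the core TAATTA.

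The genome sequence at the strongest sites is printed here to show where the summit lay relative to the gene. No difference in this position between the gene types was tested. Each stretch runs 5′ to 3′ on the gene's own strand, from the RefSeq genome of WBcel235 (the same assembly as ce11), with the RNA gene in capitals and everything else in lower case. The first 4 are the strongest sites at tRNA genes among those that could be shown, with no annotated untranslated region in the stretch. C18A11.t2, a gene for tRNA-Arg, is on the minus strand of chrX:8036487-8036777, and the summit is at base 271, downstream of the gene. Y82E9BR.t1, for tRNA-Gly, is on the plus strand of chrIII:1424471-1424582, with the summit at base 81, inside the gene. C14B9.t2, for tRNA-Leu, is on the plus strand of chrIII:8109583-8109849, with the summit at base 247. C48C5.t1, for tRNA-Pro, is on the plus strand of chrX:8969718-8969899, with the summit at base 162. The letters of the B box were present in all 4 genes, as GTTCGAATC in C18A11.t2, GTTCGATTC in Y82E9BR.t1, GTTCGAATC in C14B9.t2 and GTTCAATCC in C48C5.t1. Such letters were also in the flank of C18A11.t2, as GTTCAAAAC, and of C14B9.t2, as GTTCAATTC on the other strand. The summits lay 178 bp from C18A11.t2 and 105 bp from C14B9.t2.
C18A11.t2: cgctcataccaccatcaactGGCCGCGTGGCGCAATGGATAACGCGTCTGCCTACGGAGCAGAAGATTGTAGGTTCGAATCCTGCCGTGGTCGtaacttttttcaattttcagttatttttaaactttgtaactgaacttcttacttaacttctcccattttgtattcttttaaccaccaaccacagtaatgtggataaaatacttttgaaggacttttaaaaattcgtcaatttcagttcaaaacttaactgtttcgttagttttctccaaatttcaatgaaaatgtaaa
Y82E9BR.t1: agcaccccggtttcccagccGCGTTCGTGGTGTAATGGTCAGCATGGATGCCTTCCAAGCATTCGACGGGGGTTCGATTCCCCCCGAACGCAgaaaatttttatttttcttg
C14B9.t2: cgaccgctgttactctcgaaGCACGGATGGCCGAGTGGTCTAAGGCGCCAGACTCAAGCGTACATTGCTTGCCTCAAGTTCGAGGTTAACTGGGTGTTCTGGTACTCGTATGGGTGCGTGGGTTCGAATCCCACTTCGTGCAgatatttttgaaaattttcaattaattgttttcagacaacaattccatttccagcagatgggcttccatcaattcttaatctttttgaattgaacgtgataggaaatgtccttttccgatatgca
C48C5.t1: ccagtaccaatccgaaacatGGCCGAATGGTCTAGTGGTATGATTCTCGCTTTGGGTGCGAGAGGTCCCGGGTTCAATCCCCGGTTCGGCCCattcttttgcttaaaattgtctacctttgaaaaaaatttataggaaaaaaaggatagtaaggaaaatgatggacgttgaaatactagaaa

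The next 2 are the strongest sites at snRNA genes under the same limits. sls-2.1, an SL2 RNA gene, is on the plus strand of chrII:5844747-5844994, with the stronger of its 2 summits at base 21, upstream of the gene. sls-2.2, another SL2 RNA gene, is on the plus strand of chrII:5543578-5543727, with the summit at base 73. In sls-2.2 the summit is inside the gene, and neither stretch held the letters of the B box core. At sls-2.1 those letters were present within 100 bp of the stronger summit, before the start of the stretch shown.
sls-2.1: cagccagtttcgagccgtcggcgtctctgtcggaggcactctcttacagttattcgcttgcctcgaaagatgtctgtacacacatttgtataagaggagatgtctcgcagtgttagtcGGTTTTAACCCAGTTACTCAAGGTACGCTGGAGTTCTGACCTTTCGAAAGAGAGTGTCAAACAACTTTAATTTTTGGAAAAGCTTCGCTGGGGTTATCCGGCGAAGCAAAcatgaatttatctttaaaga
sls-2.2: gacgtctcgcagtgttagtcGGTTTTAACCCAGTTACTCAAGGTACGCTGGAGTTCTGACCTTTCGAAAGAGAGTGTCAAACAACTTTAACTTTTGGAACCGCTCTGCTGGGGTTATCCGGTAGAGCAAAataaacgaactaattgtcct

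Under the same limits 2 snoRNA genes are shown. F32E10.10 is on the plus strand of chrIV:7574102-7574257, with the summit at base 136, downstream of the gene. ZK994.7 is on the plus strand of chrV:8500495-8500665, with the summit at base 21, upstream of the gene. The gene F32E10.10 itself held no B box core, but its flank held the letters GTTCGAATC, and ZK994.7 held none in the gene or the flank.
F32E10.10: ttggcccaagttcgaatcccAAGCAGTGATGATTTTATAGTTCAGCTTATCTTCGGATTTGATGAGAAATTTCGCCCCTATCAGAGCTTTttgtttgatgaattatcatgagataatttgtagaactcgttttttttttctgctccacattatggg
ZK994.7: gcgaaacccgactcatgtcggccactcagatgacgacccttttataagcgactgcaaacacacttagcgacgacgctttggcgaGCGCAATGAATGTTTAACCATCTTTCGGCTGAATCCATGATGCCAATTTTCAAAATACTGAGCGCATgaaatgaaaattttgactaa

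Summits crowded onto tRNA genes and into the first 100 bp beside them. Inside tRNA genes there were 43 pooled summits, or 938 per Mb of tRNA gene sequence, which is 5.63 times the mean of 167 per Mb over the nuclear genome. At 1 to 100 bp from a tRNA gene the density was 488 per Mb, or 2.93 times the genome mean, and it was 0.872 times the mean at 401 to 500 bp and 1.00 times at 501 to 1000 bp. The excess was present in both replicate lists, though unequally: inside tRNA genes the density was 2.34 times the genome mean in replicate 1 and 4.74 times in replicate 2. In replicate 1 the density at 101 to 200 bp, 1.94 times the mean, was above that at 1 to 100 bp, 1.72 times.

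At the other gene types the density at the gene was lower, and no difference in shape was tested. Within 500 bp of snRNA genes the pooled density was 1.29 times the genome mean, and it was 0.939 times in replicate 1 and 1.38 times in replicate 2. The 5 pooled summits inside snRNA genes came to 1.92 times the mean, and the ratio was 1.43 at 1 to 100 bp, 1.69 at 101 to 200 bp and 0.248 at 201 to 300 bp, where 1 summit lay. Within 500 bp of snoRNA genes the density was 1.72 times the mean. It was 1.26 times inside the snoRNA genes, 2.10 times at 1 to 100 bp, 2.08 times at 101 to 200 bp and still 1.32 times at 2001 to 5000 bp. In replicate 2 the snoRNA ratio was 1.83 inside the genes and 1.86 at 1 to 100 bp, and in replicate 1 it was 1.06 inside and 1.37 at 1 to 100 bp. Flanks of protein-coding genes had 1.45 times the genome mean at 1 to 100 bp and 1.55 times at 101 to 200 bp. Inside protein-coding genes the density was 0.930 times the mean. Of the 346 snoRNA genes, 130 lay outside protein-coding genes and the rest inside them.

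**Figure D1:**
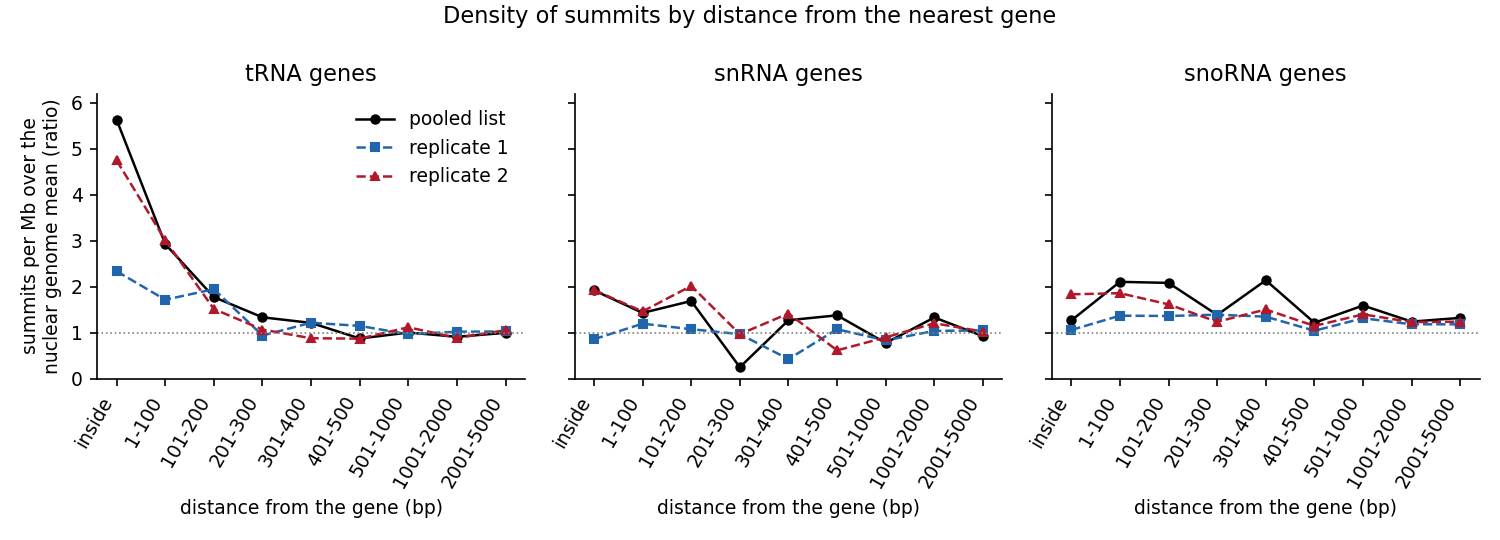
Summits per Mb divided by the mean over the nuclear genome (y axis, ratio) in bins of distance from the nearest tRNA, snRNA or snoRNA gene (x axis, bp), for the pooled list (circles), replicate 1 (squares) and replicate 2 (triangles); the dotted line is the genome mean. The tRNA curve falls from 5.63 inside the genes to 0.872 at 401 to 500 bp in the pooled list, while the snoRNA curve of the pooled list is at 1.26 inside the genes and 2.10 at 1 to 100 bp.

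Base composition also differed between these genes and the rest of the genome. The windows of 100 bp on each side of tRNA gene centres had a median GC content of 43.8%, those of snRNA genes 41.8% and those of snoRNA genes 39.3%, against 35.3% over all nuclear positions. Across the genome, the pooled density outside tRNA genes fell as GC rose, to 51.6 per Mb in windows with 45 to 50% GC, against 266 per Mb in those under 30%. Inside tRNA genes whose windows had 45 to 50% GC the density was 1046 per Mb, 20.3 times that of other positions of the same GC. In windows with 40 to 45% GC it was 776 per Mb inside tRNA genes and 83.9 per Mb outside, a ratio of 9.24. In windows with 35 to 40% GC it was 925 per Mb inside tRNA genes and 136 per Mb outside, a ratio of 6.78. These ratios rest on 15, 15 and 7 summits inside tRNA genes, and 6 further such summits lay in windows of other GC content.

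The sites at small RNA genes were modestly stronger than the rest in the middle of the distribution, and more often among the very strong. The median pooled signal was 17.4 at tRNA genes, 18.1 at snRNA genes and 18.6 at snoRNA genes, against 16.3 for the other nuclear entries. The ranges between the quartiles overlapped widely, from 15.3 to 21.2 at tRNA genes, from 15.8 to 21.3 at snRNA genes and from 15.8 to 22.3 at snoRNA genes, against 14.6 to 19.1 for the others. The 1000 strongest nuclear entries held 45 of the 322 sites, or 14.0% (10.4 to 18.2%), while 5.83% of the other nuclear entries were among them. By type, these were 26 tRNA sites (13.7%, 9.14 to 19.4%), 5 snRNA sites (17.2%, 5.85 to 35.8%) and 14 snoRNA sites (13.0%, 7.27 to 20.8%), so the lower bounds for tRNA and snoRNA sites were above the background share and that for snRNA sites lay at its edge.

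The share of the list made up by these sites was largest at the very top. They were 13.0% of the 100 strongest pooled entries, 2.0% of those ranked 101 to 300, 4.0% of those ranked 301 to 1000 and 1.24% of those ranked below 10000. In the replicate lists they were 7.0% of the 100 strongest entries of replicate 1 and 11.0% of the 100 strongest of replicate 2. The optimal list held 3 of the 322 sites, 1 of each gene type, while 0.146% of the other nuclear entries, 24 in all, were in it. Within every band of GC content, 12.5 to 17.5% of the sites were among the 1000 strongest, against 4.31 to 6.65% of the other entries.

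**Figure D2:**
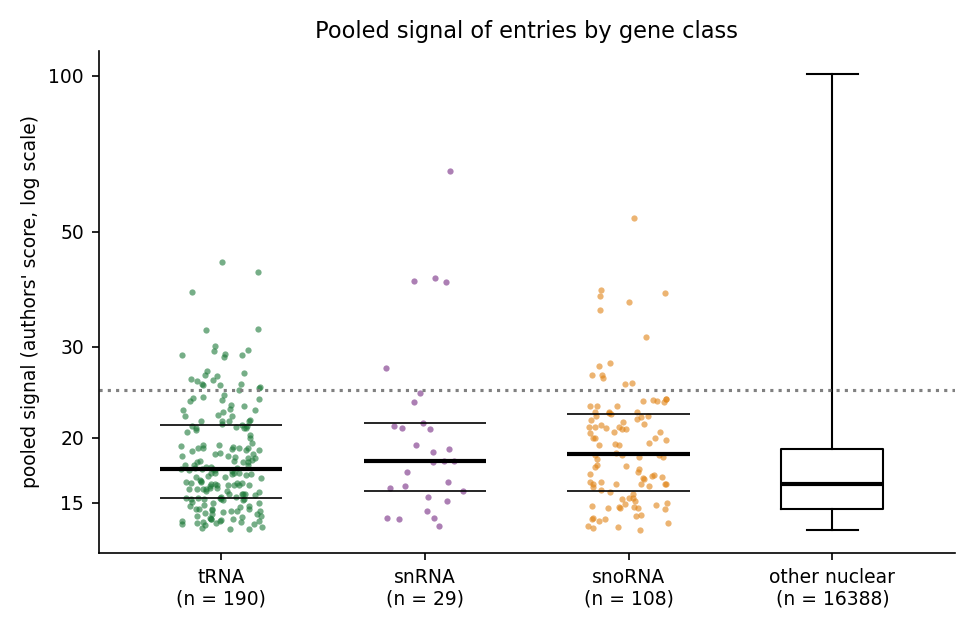
Pooled signal (y axis, the authors' score, log scale) of each site at tRNA, snRNA and snoRNA genes (points; thick line the median, thin lines the quartiles) and, at the right, of the other nuclear entries as a box of quartiles with whiskers to the lowest and highest value. The dotted line is the lowest signal of another entry among the 1000 strongest, and 26 tRNA, 5 snRNA and 14 snoRNA sites were among those 1000.

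Presence in the replicate lists differed between the replicates. A pooled site was counted as present when the replicate list had a summit within 150 bp. In replicate 1 the sites were present about as often as the background, at 62.6% of tRNA sites (55.3 to 69.5%), 51.7% of snRNA sites (32.5 to 70.6%) and 59.3% of snoRNA sites (49.4 to 68.6%), against 61.6% of the other nuclear entries, which lies inside each interval. In replicate 2 they were present more often, at 69.5% of tRNA sites (62.4 to 75.9%), 82.8% of snRNA sites (64.2 to 94.2%) and 71.3% of snoRNA sites (61.8 to 79.6%), against 58.1% of the others. Both lists held 118 of the 322 sites, or 36.6% (31.4 to 42.2%), against 28.3% of the other nuclear entries. Among the 1000 strongest pooled entries, 66.7% of the 45 sites were in both lists, against 76.4% of the 955 other entries, which lies inside the 95% interval of the sites (lower bound 51.0%).

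Each replicate list on its own also placed these sites among its strongest entries. In replicate 1, 6.99% of its 429 sites at small RNA genes were among its own 1000 strongest, against 3.28% of its other nuclear entries. In replicate 2, the share was 9.47% of 528 sites, against 3.23% of its other nuclear entries. Few entries of either kind were among the strong ones in both. The 1000 strongest of both lists held 6 of the 322 sites, or 1.86% (0.687 to 4.01%), against 0.354% of the other nuclear entries, 58 in all. Among the 118 sites in both lists Spearman's correlation between the replicate signals was 0.07, and among the 4637 other entries in both lists it was 0.01; these are correlations across entries that share a control, given as a description.

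**Figure D3:**
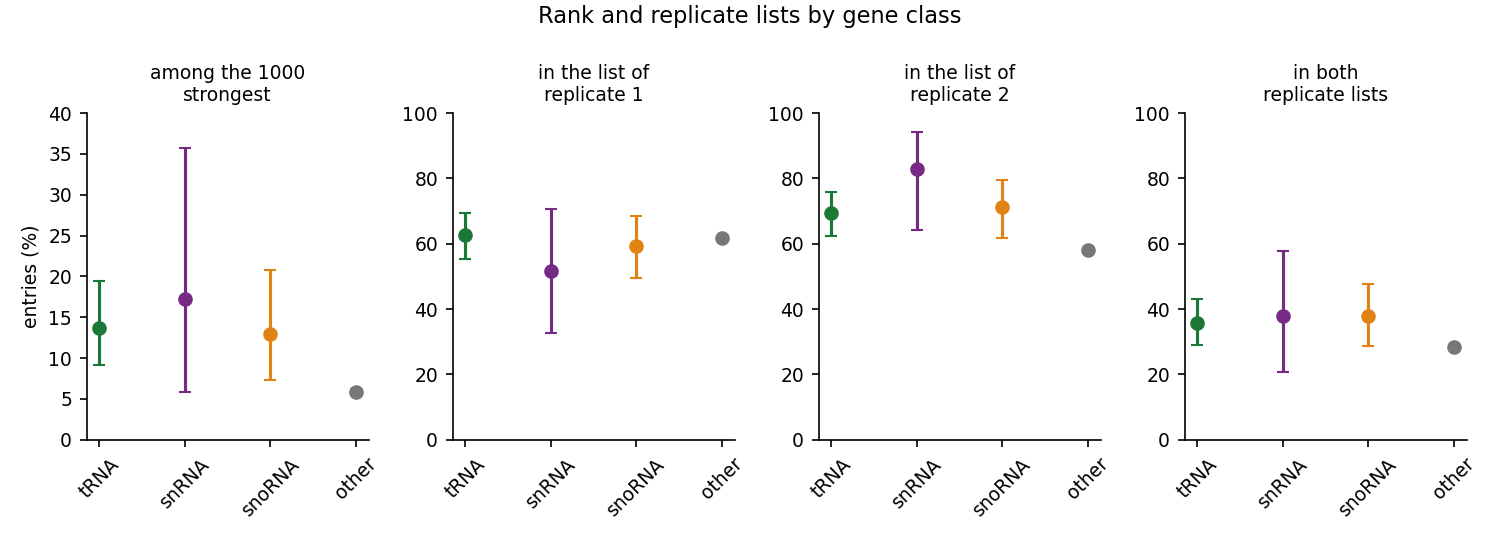
Share of entries (y axis, %) among the 1000 strongest pooled entries and in the list of replicate 1, of replicate 2 and of both, for sites at tRNA, snRNA and snoRNA genes and for the other nuclear entries (x axis); bars are exact 95% intervals and the first panel has its own scale. The types lie above the other entries in replicate 2, at 69.5 to 82.8% against 58.1%, and around them in replicate 1.

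**Figure D4:**
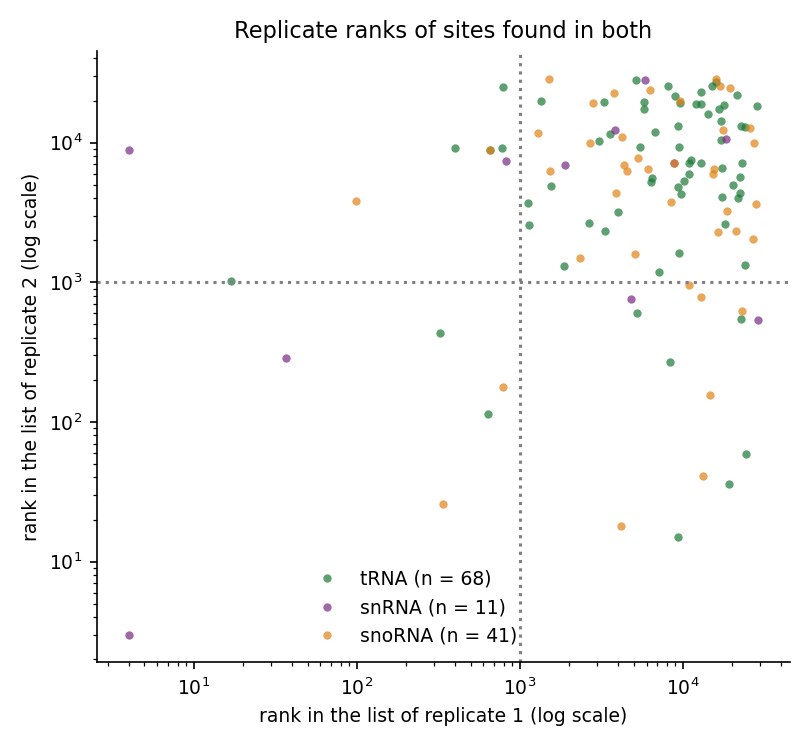
Rank in the list of replicate 1 (x axis, log scale) against rank in the list of replicate 2 (y axis, log scale) for the sites present in both, by gene type; rank 1 is the strongest and dotted lines mark rank 1000. Only 6 sites lie at the lower left of both dotted lines, and the point nearest the corner is the site upstream of sls-2.1, with ranks 4 and 3.

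At tRNA genes, 72 summits lay upstream of the gene, 43 inside it and 75 downstream. The median pooled signal was 17.3 upstream, 17.7 inside and 17.1 downstream. The 1000 strongest held 8 of the 72 upstream, 5 of the 43 inside and 13 of the 75 downstream sites, and the 100 strongest held 2 of the 43 inside and 1 of the 147 in the flanks. Sites with the summit inside the gene were present in replicate 2 in 86.0% of cases and in replicate 1 in 55.8%, and both lists held 41.9% of them, compared with 34.0% of tRNA sites with the summit in the flank. A further gene of the same type lay within 500 bp at 27 of the 190 tRNA sites, so these sites cannot be assigned to 1 gene.

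The strongest tRNA site was at C18A11.t2, for tRNA-Arg, with its summit at chrX:8036507, 178 bp downstream of the gene, a pooled signal of 43.6 and pooled rank 25. It was the tRNA site of the optimal list, yet its signal was 10.02 in replicate 1 (rank 9336) and 32.5 in replicate 2 (rank 15). Y82E9BR.t1, for tRNA-Gly, had its summit inside the gene at chrIII:1424551, with pooled signal 41.9 and rank 32, and signals of 24.97 in replicate 1 (rank 17) and 15.9 in replicate 2 (rank 1025). The gene lies in an intron of lelo-2, on the other strand. C33G3.t2, for tRNA-Lys, had its summit inside the gene at chrX:14063948, with pooled signal 38.2 and rank 56, and signals of 16.7 in replicate 1 (rank 637) and 22.8 in replicate 2 (rank 114). C33G3.t2 and T04D3.t4, for tRNA-Thr, were the tRNA sites in the 1000 strongest of both lists, T04D3.t4 with ranks 324 in replicate 1 and 433 in replicate 2.

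The remaining named tRNA sites leaned on 1 replicate or were moderate in both. C04E7.t1, for tRNA-Leu, ranked 19328 in replicate 1 and 36 in replicate 2. The other gene for tRNA-Leu among them, C14B9.t2, ranked 50 in replicate 1, F22B7.t3 ranked 185 there and B0350.t1 ranked 2337 there, and none of these 3 had a summit within 150 bp in replicate 2. C48C5.t1, for tRNA-Pro, ranked 5215 in replicate 1 and 606 in replicate 2, and rte-1, for tRNA-Glu, ranked 3335 and 2318 in those lists.

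Counted by gene, 209 of the 612 nuclear tRNA genes (34.2%, 30.4 to 38.1%) had a pooled summit within 500 bp. For annotated starts of protein-coding genes the share was 19.7% of 19973; a tRNA gene adds its own length to the window, a median of 72 bp. A summit ranked in the 1000 strongest lay within 500 bp of 4.41% of tRNA genes (2.93 to 6.35%), against 2.06% of protein-coding starts. The shares of tRNA genes in the replicate lists, with no match to the pooled list asked for, were 40.2% in replicate 1, 52.0% in replicate 2 and 24.0% in both, against 30.7%, 33.0% and 13.1% of protein-coding starts in the same lists. Of the 20 nuclear genes for ribosomal RNA, 1 had a pooled summit within 500 bp (interval 0.127 to 24.9%, which holds the 19.7% of protein-coding starts).

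tRNA genes for nearly every amino acid were among those with a summit. By the amino acid that the annotation names, the shares included 26 of 55 genes for glycine, 14 of 31 for valine and 15 of 34 for threonine at the high end, and 1 of 13 for cysteine, 2 of 12 for tryptophan and 5 of 27 for glutamine at the low end. The low end was not the same in the replicate lists. Cysteine genes had a summit in 7 of 13 cases in replicate 1 and 2 of 13 in replicate 2. For glutamine the counts were 8 of 27 in replicate 1 and 17 of 27 in replicate 2, and for tryptophan 3 of 12 in each. Of all tRNA genes, 40.2% had a summit in replicate 1 and 52.0% in replicate 2. Most of these groups are small, and no difference between amino acids was tested. By chromosome the share ran from 25.6% on V (20 of 78) to 42.1% on II (24 of 57), against 34.2% of all tRNA genes. Chromosome X carries 276 of the tRNA genes, and 91 of them (33.0%) had a summit. No difference between chromosomes was tested. Many tRNA genes are identical copies, to which short reads cannot be assigned by the gene sequence alone. A summit was near 29.4% of the 143 tRNA genes with a unique sequence, 39.0% of the 82 with 2 to 5 copies and 34.9% of the 387 with more than 5 copies. A summit ranked in the 1000 strongest was near 1.40% of the unique genes (0.170 to 4.96%), 2.44% of those with 2 to 5 copies (0.297 to 8.53%) and 5.94% of those with more than 5 (3.80 to 8.78%). These shares rest on 2, 2 and 23 genes, their intervals overlap, and the part of copy number in the result was not tested.

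snRNA genes gave few sites, and 4 of the 5 among the 1000 strongest were at SL2 RNA genes. Of the 129 nuclear snRNA genes, 31 (24.0%, 16.9 to 32.3%) had a pooled summit within 500 bp, an interval that holds the 19.7% of protein-coding starts. The share was 9 of 18 SL2 genes (interval 26.0 to 74.0%), 0 of 12 SL1 genes (interval up to 26.5%), 2 of the 10 smy genes annotated as snRNA and 20 of 89 snRNA genes to which the annotation gives no family name. SL2 genes were near a summit in 6 of 18 cases in replicate 1 and 14 of 18 in replicate 2, and SL1 genes in 0 of 12 in each list, against 30.7% of protein-coding starts in replicate 1 and 33.0% in replicate 2. All 18 SL2 genes have unique sequences. Of the SL1 genes, 10 are identical to each other and the other 2 to one another, and the interval counts these copies as separate genes. The part of identical copies in the lack of summits at SL1 genes was not tested.

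The site upstream of sls-2.1 was the strongest of all 322. Its summit at chrII:5844767 lay 98 bp upstream of the gene, with pooled signal 65.4 and rank 2, and signals of 29.6 in replicate 1 (rank 4) and 41.9 in replicate 2 (rank 3). It was in the optimal list and is one of the few sites that ranked high in both replicates. A second pooled entry that overlaps the first had its summit inside sls-2.1 at chrII:5844966, with signal 40.7 and rank 37; it was matched to the same entry of replicate 1 as the first and to one at rank 8850 in replicate 2, so it is no independent site in replicate 1.

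The other strong SL2 sites had the summit inside the gene. sls-2.2 had its summit at chrII:5543650, with pooled signal 39.9 and rank 41, and signals of 23.7 in replicate 1 (rank 37) and 19.8 in replicate 2 (rank 285). sls-2.4, on chromosome I, had pooled signal 40.1 and rank 40, with signal 42.0 in replicate 2 (rank 2) and no summit within 150 bp in replicate 1. The 6 further SL2 sites had pooled ranks of 1064 to 14222, and 5 of them had no match in replicate 1. Outside the SL2 genes, 1 snRNA site was among the 1000 strongest. Of the remaining named snRNA sites, F54D8.7, F08H9.10 and sls-2.9 had no match in replicate 1 and ranked 613, 7026 and 2719 in replicate 2. sls-2.3 ranked 3838 in replicate 1 and 12356 in replicate 2. Its summit lay 489 bp from sls-2.3 but 102 bp from the annotated start of the protein-coding gene ins-13.

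**Figure D5:**
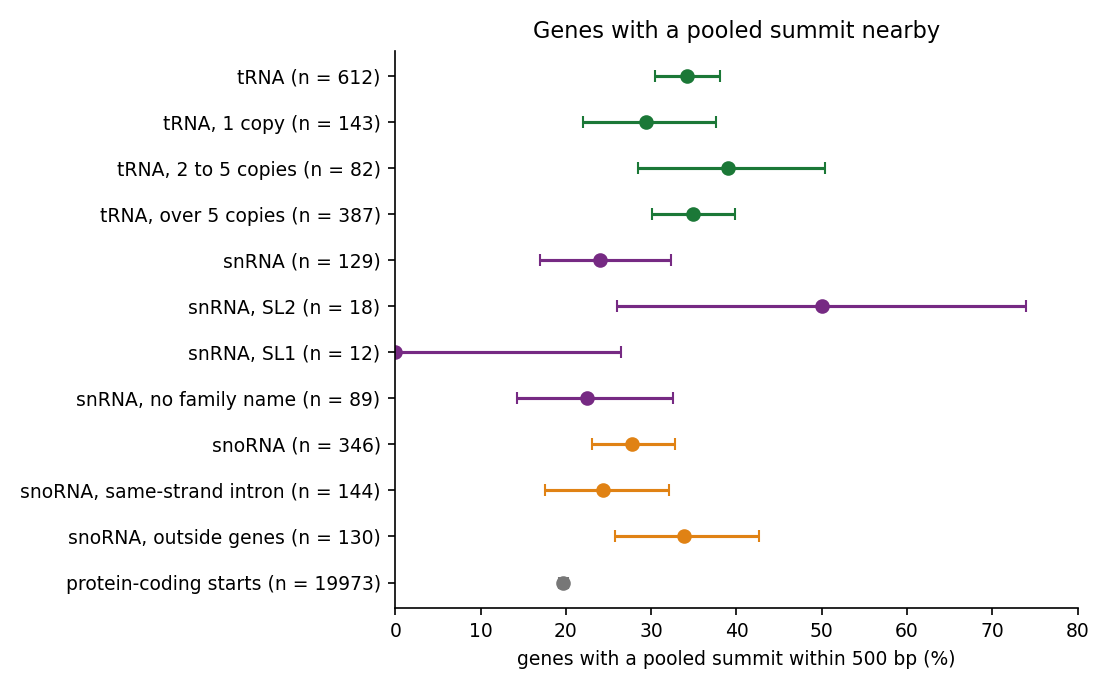
Share of genes with a pooled summit within 500 bp (x axis, %) for tRNA, snRNA and snoRNA genes and their subsets, and for annotated starts of protein-coding genes (bottom row); bars are exact 95% intervals. SL2 genes are at 9 of 18 and SL1 genes at 0 of 12, while all 3 tRNA copy classes lie between 29.4 and 39.0%.

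At snoRNA genes the summits lay mostly beside the gene, with 50 upstream, 10 inside and 48 downstream. Of the 346 nuclear snoRNA genes, 96 (27.7%, 23.1 to 32.8%) had a pooled summit within 500 bp, and all 346 have unique sequences. The share was 24.3% (17.6 to 32.1%) of the 144 genes in an intron of a host on the same strand, 33.3% of the 27 in an intron of a gene on the other strand, 17.8% of the 45 that overlap an exon of their host and 33.8% (25.8 to 42.7%) of the 130 outside protein-coding genes. The intervals of the hosted and free genes overlap. At 58 of the 108 snoRNA sites the nearest snoRNA gene lay inside a protein-coding gene.

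The strongest snoRNA site was nearer to the start of its host gene than to the snoRNA gene. K11H12.13 lies in an intron of rpl-15, a gene for a protein of the large ribosomal subunit, and the summit at chrIV:654843 was 482 bp from the snoRNA gene but 267 bp from the annotated start of rpl-15. Its pooled signal was 53.0, rank 6, with signals of 18.1 in replicate 1 (rank 340) and 28.7 in replicate 2 (rank 26), and it was in the optimal list. D1007.20, in an intron of rpl-24.1, was likewise 294 bp from the snoRNA gene and 160 bp from the start of its host; it had pooled signal 26.5, ranked 269 in replicate 2 and had no match in replicate 1.

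The other strong snoRNA sites were at genes both inside and outside hosts, and most leaned on 1 replicate. F32E10.10 had its summit at chrIV:7574237, 46 bp downstream of the gene, with pooled signal 38.5 and rank 52, and signals of 21.0 in replicate 1 (rank 99) and 12.2 in replicate 2 (rank 3792). W06H8.17 had its summit at chrV:6227738, with pooled signal 37.5 and rank 62; it ranked 12 in replicate 2 and had no match in replicate 1. F55H12.9, on chromosome I, was with K11H12.13 the only snoRNA site in the 1000 strongest of both replicate lists, at ranks 788 in replicate 1 and 177 in replicate 2. T19B4.8 had its summit inside the gene and ranked 4191 in replicate 1 and 18 in replicate 2. ZK994.7, in an intron of pxn-1, had its summit at chrV:8500515 and ranked 14791 in replicate 1 and 155 in replicate 2. F58D5.11, which overlaps an exon of its host, ranked 13298 in replicate 1 and 41 in replicate 2, T28B8.11 ranked 29 in replicate 2 alone, and C27H5.9 ranked 2343 in replicate 1 and 1486 in replicate 2. The summit at C27H5.9 lay 336 bp from the snoRNA gene but 127 bp from the annotated start of pdl-1. All 14 snoRNA sites among the 1000 strongest were present in replicate 2 (76.8 to 100%), against 87.6% of the other nuclear entries among those 1000. In replicate 1 the share was 64.3% of the 14 (35.1 to 87.2%), against 88.4% of those other entries.

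Nearness to protein-coding promoters was within counting error of the background in each gene type. A summit lay from 1000 bp upstream to 200 bp downstream of an annotated protein-coding start at 21.6% of tRNA sites (16.0 to 28.1%), 34.5% of snRNA sites (17.9 to 54.3%) and 29.6% of snoRNA sites (21.2 to 39.2%), against 26.7% of the other nuclear entries. Outside those promoter windows 12.9% of the 241 sites were among the 1000 strongest, against 4.77% of the other entries there. Inside them the share was 17.3% of 81 sites, against 8.72% of the other entries. The median signal of the 19 snRNA sites outside the windows was 16.2, against 16.1 for the other entries outside them and 16.3 for all other nuclear entries. For the 10 snRNA sites inside the windows it was 20.3, against 16.6 for the other entries inside them.

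Motif letters were searched on both strands within 100 bp of each summit. The B box core, as GTTCGANNC or GTTCAANNC, is present in 587 of the 612 tRNA genes on the gene's own strand, in 0 of the 129 snRNA genes and in 10 of the 346 snoRNA genes. It was found around 45.3% of tRNA summits, against 3.62% of the other nuclear entries. Of the snRNA summits 4 of 29 had it (13.8%, 3.89 to 31.7%), and of the snoRNA summits 12 of 108 (11.1%, 5.87 to 18.6%). The share was 97.7% of tRNA sites with the summit inside the gene and 29.9% of those with the summit in the flank. The median tRNA gene is 72 bp long, shorter than the 100 bp searched on each side. The share for summits inside the gene therefore follows largely from the choice of sites, which also enters the 45.3% of all tRNA sites. It enters the 29.9% in the flank as well. There, 58 summits lay 1 to 100 bp from a tRNA gene, where the search can reach into the gene. TAATTA was found around 6.84% of tRNA, 10.3% of snRNA and 7.41% of snoRNA summits, against 11.5% of the other nuclear entries. The summits at small RNA genes had a median GC of 37.6% at tRNA, 38.3% at snRNA and 35.3% at snoRNA genes, against 31.8% for the others. The part of base composition in the B box and TAATTA shares was not tested.

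The limit of 500 bp decided on several entries. Just inside it were tRNA sites at Y73F8A.t4 (485 bp, pooled signal 16.6) and Y65A5A.t1 (471 bp, 16.4), snRNA sites at sls-2.3 (489 bp, 24.5) and T14B4.10 (488 bp, 18.8), and snoRNA sites at K11H12.13 (482 bp, 53.0) and smy-2 (467 bp, 13.5), a gene of the smy family whose annotated type is snoRNA. Just outside it were entries near the tRNA genes Y59E1B.t2 (501 bp, 18.0) and C06G4.t1 (510 bp, 27.3) and the snoRNA genes C06A1.9 (515 bp, 101.01) and K02F3.15 (523 bp, 15.7). The entry near C06A1.9, with its summit at chrII:10563579, is the strongest nuclear entry of the pooled list, with ranks 1 in replicate 1 and 7 in replicate 2, and it counts among the other entries here. An optimal entry at chrX:16056660, with pooled signal 53.7 and rank 5, lay 714 bp from the snoRNA gene T27A8.8 and is likewise not among the sites.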

How the data were processed

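The deposited narrowPeak lists give peaks and background regions of each replicate and of both replicates pooled, called with 1 shared control, and an optimal list chosen by reproducibility, per the inventories the authors deposited. The sources used here name no aligner, caller, threshold or read number. The signal is the authors' score per entry, used as deposited to rank entries within a list; mitochondrial entries were left out. Other values read were summit offsets. The ce10 lists were not used here.

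Summits on ce11, counted from 1, were assigned to genes by Ensembl release 115 biotypes, with gene names and tRNA products from the RefSeq annotation of WBcel235. Whole genes were the unit, and a host is a protein-coding gene that contains the small RNA gene. The members and gene lists were chosen with earlier results of these data known. Named members were, for each gene type, the 10 with the highest pooled signal, those in the optimal list and those among the 1000 strongest of both replicates. Some named snRNA members, and snRNA entries just outside the 500 bp limit, are not reported here. Distances and matches were tested on simulated positions. Computation used Python 3.11.15, numpy 2.4.6, pandas 2.3.3 and scipy 1.17.1. Shares, medians and densities were recomputed under other windows, matches and lists.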

Additional observations from a re-analysis of the deposited data

How the results depend on the processing

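The median signal of sites at small RNA genes stayed above that of the other nuclear entries under every alternative run, with log2 ratios of 0.07 to 0.18 against 0.12 as reported, but for snRNA sites alone it was −0.011 without snRNA sites in protein-coding promoter windows, which were set against all other nuclear entries; the cause was not tested. The counts moved with the window by construction. The share of nuclear entries that were sites was 1.93%. It was 0.347% with the summit inside the gene, 1.36% within 250 bp and 2.96% within 1000 bp. It was 1.45% when sites in promoter windows were dropped but the other entries in those windows were kept. Outside promoter windows there were 241 sites and 12007 other entries. The share was 1.04% without sites assigned only through a gene inside a host. By overlap of the whole entry it was 1.14%, and among the 5000 strongest it was 2.90%. The share in both replicate lists, 36.6%, was 48.3% with the summit inside the gene, 42.6% by overlap of the whole entry and 55.9% among the 5000 strongest, against 52.5% of the other entries among those 5000. Matching within 50 bp gave 16.5% against 12.7% of the other entries, within 300 bp 49.4% against 39.8%, by a shared base 50.6% against 40.2%, and among the 5000 strongest of each replicate list 5.90% against 2.00%. The share among the strongest, 14.0%, was 7.76% for the 500 strongest (2.90% of the others), 23.0% for the 2000 strongest (11.8% of the others) and 31.0% of the sites among the 5000 strongest, against 19.7% of the other entries among those. The share of genes with a summit, 30.9% over the 3 types, was 5.34% inside the gene, 22.1% within 250 bp and 45.2% within 1000 bp, and the share of sites with the summit inside, 18.0%, was 25.6% within 250 bp and 11.7% within 1000 bp.

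With the list of replicate 2 or replicate 1 alone, the share of sites ranged from 1.43 to 1.76% of entries, the log2 signal ratio from 0.08 to 0.17, the share among the 1000 strongest from 6.99 to 9.47%, the share of genes from 37.7 to 48.9% and the share with the summit inside from 11.9 to 18.9%. The lower value was that of the replicate 1 list each time. These lists are longer than the pooled list, with 29980 nuclear entries in replicate 1 and 29972 in replicate 2, against 16710. The 1000 strongest are therefore a smaller part of them, and a longer list can reach more genes. Of the other entries, 3.28% in replicate 1 and 3.23% in replicate 2 were among the 1000 strongest, against 5.83% in the pooled list. No paired analysis was possible because the study has a single group. The unknown depth and the shared control limit all shares, and no interval covers the difference between replicates.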
